A study of Mus musculus with 10 samples.

Results

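The genes described here code for the matrix that fibroblasts and smooth muscle cells lay down, and for proteins of those cells themselves. They are 31 genes taken by name, among them the chains of collagens I, III, V and VI, of which 30 had values in the deposited tables and S100a4 was not analysed here. They were measured in 10 RNA-seq libraries of mouse embryonic stem (ES) cells of the C57BL/6 strain. The tables list 30460 genes each. The groups were 3 libraries labelled Mga-/- (MgaKO1, MgaKO2 and MgaKO3), 2 labelled L3mbtl2-/-, 2 labelled Pcgf6-/- and 3 from wild type cells, with no treatment named in the labels. The labels do not say how each allele was made or whether replicates are separate clones or cultures. The p-values therefore measure only how far these libraries differ, which may be technical.

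Fibroblasts secrete procollagen chains that fold into triple helices, are trimmed outside the cell and are then cross-linked by lysyl oxidases. Fibronectin, fibrillin and small leucine-rich proteoglycans organise the fibres, and metalloproteinases and their inhibitors govern turnover. Naive ES cells are epithelial-like and are not known as a main source of fibrillar matrix, which mesenchymal cells make in quantity. MGA, L3MBTL2 and PCGF6 are subunits of PRC1.6, a variant Polycomb complex that represses genes, many of them germline genes, in ES cells.

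Promoter sequence is shown for the 4 genes with the largest excess of MgaKO1 over MgaKO2 and MgaKO3, described below. Each run is the 250 bases before a gene's start, from RefSeq on GRCm38.p6, read 5′ to 3′ on the gene's strand, and the capitals mark a motif found on either strand. Postn has 2 starts in the table, and neither window held a motif.
Col6a3, chr1:90843972-90844221, minus strand, E2F motif in capitals: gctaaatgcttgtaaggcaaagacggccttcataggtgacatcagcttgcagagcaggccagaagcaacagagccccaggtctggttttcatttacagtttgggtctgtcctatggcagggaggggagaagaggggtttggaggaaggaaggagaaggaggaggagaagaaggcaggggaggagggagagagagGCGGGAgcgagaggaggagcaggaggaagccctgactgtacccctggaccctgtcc
Col3a1, chr1:45311288-45311537, plus strand, TEAD motif in capitals: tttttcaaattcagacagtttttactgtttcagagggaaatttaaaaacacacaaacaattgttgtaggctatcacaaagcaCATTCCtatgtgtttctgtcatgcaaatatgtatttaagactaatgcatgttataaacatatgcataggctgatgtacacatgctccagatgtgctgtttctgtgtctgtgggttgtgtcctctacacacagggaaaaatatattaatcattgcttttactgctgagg
Twist1, chr12:33957421-33957670, plus strand, CCAAT box in capitals: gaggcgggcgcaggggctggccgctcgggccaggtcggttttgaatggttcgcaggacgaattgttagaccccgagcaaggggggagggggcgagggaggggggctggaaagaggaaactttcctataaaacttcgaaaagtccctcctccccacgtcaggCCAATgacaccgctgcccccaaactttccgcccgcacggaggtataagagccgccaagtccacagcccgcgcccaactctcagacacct
Postn, first start, chr3:54359017-54359266, plus strand, no motif: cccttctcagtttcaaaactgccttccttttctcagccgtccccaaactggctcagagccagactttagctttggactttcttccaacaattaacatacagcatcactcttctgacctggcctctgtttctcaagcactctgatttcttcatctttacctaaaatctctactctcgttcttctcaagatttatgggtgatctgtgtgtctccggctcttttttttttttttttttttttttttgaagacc
Postn, second start, chr3:54360857-54361106, plus strand, no motif: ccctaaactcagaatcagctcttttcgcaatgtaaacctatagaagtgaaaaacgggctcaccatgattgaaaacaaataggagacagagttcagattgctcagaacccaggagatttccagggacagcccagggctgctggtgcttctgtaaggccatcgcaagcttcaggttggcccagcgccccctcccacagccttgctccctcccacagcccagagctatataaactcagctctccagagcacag
The motifs searched were the E-box CACGTG, which MGA with MAX can bind, the E2F motif GCGGGA, the TEAD motif CATTCC, the CCAAT box CCAAT and the CArG box of serum response factor, given here by name. Of the 30 genes with values, 18 had an entry in the RefSeq promoter table. CACGTG was before 0 of these 18 genes, against 6.02% of all 32841 promoters of the same length, and the CArG box in its strict form was before 0 of 18, against 1.47%. That form is CC, a run of A or T alone, and GG. Near matches that depart from it by 1 base were not counted, such as ccctatatgg in the Acta2 window and ccctataagg in that of Timp3. GCGGGA was before 5 of the 18 genes, a gene with more than 1 start counted once (27.8%, against 16.9% of all promoters), namely Col5a1, Col6a2, Col6a3, Fstl1 and Igfbp7. CATTCC was before 4 of 18 (22.2%, against 12.6%), and CCAAT before 5 of 18 (27.8%, against 33.9%). The shares of all promoters count each start singly, so a gene with more than 1 start had more chances of a match. Col6a2 had GCGGGA before 1 start and CATTCC before the other. The E2F motif lay 56 bases before the start of Col6a3, and the TEAD motif lay 168 bases before that of Col3a1. These matches describe the letters of the windows only. Col3a1 (ENSMUSG00000026043, chr1:45311538-45349706, plus strand) and Col5a2 (ENSMUSG00000026042, chr1:45374321-45503282, minus strand) are near each other on chromosome 1 of GRCm38 in the GENCODE M21 annotation. Col6a3 (ENSMUSG00000048126) spans chr1:90765923-90843971 on the minus strand.

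The library kit does not mark strand, so reads of genes that overlap on opposite strands cannot be told apart. Col3a1 overlaps Gm47302 on the same strand, where strand would not part them. Exons of Col3a1, Col5a1, Fbn1, Fn1, Igfbp7, Lox, Tagln, Timp3 and Twist2 overlap exons of another annotated gene, and their values are uncertain to that extent.

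Values are FPKM, read numbers scaled to gene length and to the size of the library, as deposited. The depth recovered from the steps of the values was 19.4 to 26.7 in units of 1e6 reads per library. The targeted genes were read first. Mga was at 8.03, 19.6 and 11.2 FPKM in MgaKO1, MgaKO2 and MgaKO3, against 19.7, 18.6 and 17.1 FPKM in wild type. MgaKO2 thus stood at 106% of the wild type mean for the gene it is labelled as lacking. MgaKO1 stood at 43.5% and MgaKO3 at 60.5%, so these are called libraries labelled Mga knockout throughout. Transcript level per gene does not show whether the protein is lost. Whether a label is wrong or the allele leaves transcript could not be told apart. L3mbtl2 was at 3.72 and 3.49 FPKM in L3mbtl2 knockout libraries, against 19.8, 20.5 and 20.3 FPKM in wild type. Pcgf6 was at 9.56 and 9.82 FPKM in Pcgf6 knockout libraries, against 29.4, 29.7 and 27.6 FPKM in wild type. The libraries labelled Mga knockout also stood far apart over all genes, with a median within-group SD of 0.338 on the log2 scale, against 0.0637 in L3mbtl2 knockout, 0.0667 in Pcgf6 knockout and 0.0864 in wild type. Transcripts of 4 Y-linked genes, a list chosen after values were seen, summed to 0.834, 0.0377 and 0.174 FPKM in MgaKO1, MgaKO2 and MgaKO3, 26.6 and 25.5 FPKM in L3mbtl2 knockout, 1.09 and 0.984 FPKM in Pcgf6 knockout and 15.4, 15.1 and 14.0 FPKM in wild type. Their level moved with the groups, and its part in the results below was not tested. The 10 genes of a pluripotency list were expressed in every library, with sums of 3489 to 3747 FPKM across MgaKO1 to MgaKO3, 3788 and 3858 FPKM in L3mbtl2 knockout, 4119 and 4243 FPKM in Pcgf6 knockout and 2390 to 2591 FPKM in wild type.

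The clearest difference in the matrix genes lay inside 1 group. In MgaKO1 the 30 genes summed to 1509 FPKM, against 617 FPKM in MgaKO2 and 812 FPKM in MgaKO3. The other libraries summed to 784 and 767 FPKM in L3mbtl2 knockout, 603 and 598 FPKM in Pcgf6 knockout and 673, 668 and 666 FPKM in wild type. Collagens, proteoglycans, cross-linking enzymes, Thy1 and Twist1 were all higher in MgaKO1, while MgaKO2 and MgaKO3 lay near or below wild type for most of them. In these bulk libraries, fewer cells of a type and less RNA per cell cannot be told apart.

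**Figure D1:**
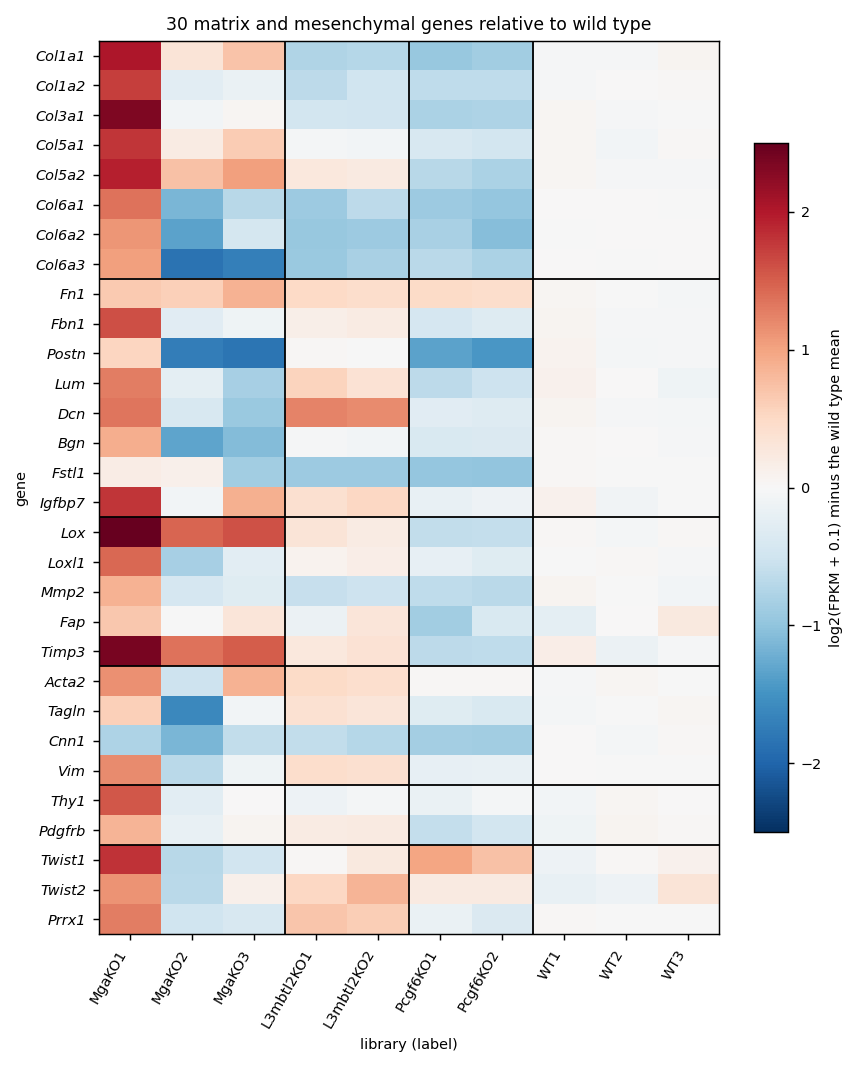
Each row is 1 of the 30 matrix and mesenchymal genes with values, each column 1 library, and the colour is log2(FPKM + 0.1) minus the mean of the 3 wild type libraries. Horizontal lines part the functional classes. The MgaKO1 column is higher than wild type for nearly every gene, MgaKO2 and MgaKO3 are mixed, and the Pcgf6 knockout columns are mostly lower.

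MgaKO1 is 1 library, so its difference from MgaKO2 and MgaKO3 has no replicate check and is given without a test. A gene was counted where it lay at least 2-fold above the mean log2(FPKM + 0.1) of both other libraries. Of the 29 genes that passed the expression filter, 23 were counted (79.3%), against 9.01% of all 15731 genes that passed. None lay at least 2-fold below, where 6.21% of all genes did. The median difference was 1.57 on the log2 scale, against 0.00426 over all genes. MgaKO1 was the highest of the 10 libraries for 27 of 29 genes (all genes 17.3%), the exceptions being Fn1 and Cnn1. It lay above every wild type library for 28 of 29 (all genes 50.3%), Cnn1 being the exception. MgaKO2 and MgaKO3 lay together below every wild type library for 16 of 29 (all genes 26.3%), singly for 21 (39.2%) and 17 (35.6%). They lay above every wild type library for 7 (45.0%) and 8 (51.3%) genes. Just inside the 2-fold line stood Col5a2, with a difference of 1.07, and just outside it Acta2 at 0.96, Timp3 at 0.94 and Pdgfrb at 0.91. The smallest differences were 0.56 for Fstl1, 0.11 for Cnn1 and -0.07 for Fn1. Fap, the fibroblast activation protease, did not pass the filter, with 0.0228 to 0.256 FPKM and 3 to 36 reads per library.

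Relative to the wild type mean, the median of the 29 genes was 1.28, -0.40 and -0.11 on the log2 scale in MgaKO1, MgaKO2 and MgaKO3. The L3mbtl2 knockout libraries had medians of 0.09 and 0.20, and the Pcgf6 knockout libraries -0.59 and -0.47. The same median over all 15731 genes lay between 0.04 and 0.14 in these 7 libraries. The 8 collagen genes had the largest class median excess of MgaKO1 over MgaKO2 and MgaKO3, 1.96, followed by 1.81 for the 8 glycoproteins and proteoglycans and 1.73 for the 3 transcription factors. The 2 surface receptors followed at 1.29, the 4 tested matrix enzymes and inhibitors at 1.24 and the 4 tested contractile and cytoskeletal genes at 1.19.

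Collagens I and III form the thick fibres of connective tissue. Col1a1, which codes for the alpha 1 chain of collagen I, was at 123, 37.6 and 49.5 FPKM in MgaKO1, MgaKO2 and MgaKO3, 18 and 18.4 FPKM in L3mbtl2 knockout, 15.6 and 16.4 FPKM in Pcgf6 knockout and 29.5, 29.5 and 31.7 FPKM in wild type. Col1a2, the alpha 2 chain of the same molecule, was at 38.3, 9.6 and 10.3 FPKM in MgaKO1, MgaKO2 and MgaKO3, 7.24 and 8.11 FPKM in L3mbtl2 knockout, 7.34 and 7.34 FPKM in Pcgf6 knockout and 11.2, 11.6 and 11.7 FPKM in wild type. MgaKO1 stood highest for both chains, all 3 libraries labelled Mga knockout lay above wild type for Col1a1 only, and the L3mbtl2 and Pcgf6 knockout libraries lay below wild type without overlap. The ratio of Col1a1 to Col1a2 in FPKM was 3.21, 3.92 and 4.79 in MgaKO1, MgaKO2 and MgaKO3, 2.49 and 2.27 in L3mbtl2 knockout, 2.13 and 2.23 for the Pcgf6 knockout and 2.64, 2.54 and 2.72 in wild type. Its size depends on the exon lengths, 6563 bases for Col1a1 and 12426 for Col1a2, and does not measure the protein chains. The ratio was thus higher in all 3 libraries labelled Mga knockout than in any other, and no test was made of it. Col3a1, the chain of collagen III, was at 26.7, 4.99 and 5.39 FPKM in MgaKO1, MgaKO2 and MgaKO3, 3.75 and 3.73 FPKM in L3mbtl2 knockout, 2.98 and 3.03 FPKM in Pcgf6 knockout and 5.39, 5.09 and 5.18 FPKM in wild type. MgaKO1 was 5.07-fold above MgaKO2 and MgaKO3, of which MgaKO3 lay within the wild type range and MgaKO2 just below it.

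Collagen V nucleates collagen I fibres. Col5a1, its alpha 1 chain, was at 34.9, 11.5 and 15.6 FPKM in MgaKO1, MgaKO2 and MgaKO3, 9.69 and 9.55 FPKM in L3mbtl2 knockout, 7.61 and 7.22 FPKM in Pcgf6 knockout and 10.3, 9.57 and 10.2 FPKM in wild type. Col5a2, its alpha 2 chain, was at 21.5, 9.22 and 11.3 FPKM in MgaKO1, MgaKO2 and MgaKO3, 6.61 and 6.44 FPKM in L3mbtl2 knockout, 3.36 and 3.13 FPKM in Pcgf6 knockout and 5.72, 5.4 and 5.39 FPKM in wild type. For both genes all 3 libraries labelled Mga knockout lay above every wild type library, with MgaKO1 highest, and the Pcgf6 knockout libraries lay below. Collagen VI forms beaded microfilaments around cells. Col6a1, its alpha 1 chain, was at 32.2, 5.58 and 7.66 FPKM in MgaKO1, MgaKO2 and MgaKO3, 6.56 and 7.87 FPKM in L3mbtl2 knockout, 6.62 and 6.31 FPKM in Pcgf6 knockout and 12.5, 12.5 and 12.4 FPKM in wild type. Col6a2, its alpha 2 chain, was at 12, 2.14 and 4.06 FPKM in MgaKO1, MgaKO2 and MgaKO3, 2.82 and 2.9 FPKM in L3mbtl2 knockout, 3.12 and 2.6 FPKM in Pcgf6 knockout and 5.53, 5.56 and 5.59 FPKM in wild type. Col6a3, its alpha 3 chain, whose promoter is shown above, was at 10.7, 1.37 and 1.51 FPKM in MgaKO1, MgaKO2 and MgaKO3, 2.69 and 2.91 FPKM in L3mbtl2 knockout, 3.24 and 2.95 FPKM in Pcgf6 knockout and 5.2, 5.17 and 5.22 FPKM in wild type. For all 3 chains MgaKO1 was the highest library, and every other knockout library, MgaKO2 and MgaKO3 included, lay below wild type. Col6a3 had the largest excess of the 29 genes in MgaKO1, 7.01-fold over MgaKO2 and MgaKO3, while MgaKO2 and MgaKO3 stood at 0.278 and 0.303 of the wild type mean. The Col6a1 to Col6a3 ratio in FPKM was 3.01, 4.06 and 5.08 in MgaKO1, MgaKO2 and MgaKO3, 2.44 and 2.7 in L3mbtl2 knockout, 2.04 and 2.14 for the Pcgf6 knockout and 2.4, 2.41 and 2.38 in wild type. The Col6a1 to Col6a2 ratio was 2.68, 2.61 and 1.88 in MgaKO1, MgaKO2 and MgaKO3, 2.33 and 2.71 in L3mbtl2 knockout, 2.12 and 2.42 for the Pcgf6 knockout and 2.26, 2.24 and 2.22 in wild type. The libraries labelled Mga knockout thus stood apart from all others in the first ratio and not in the second.

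**Figure D2:**
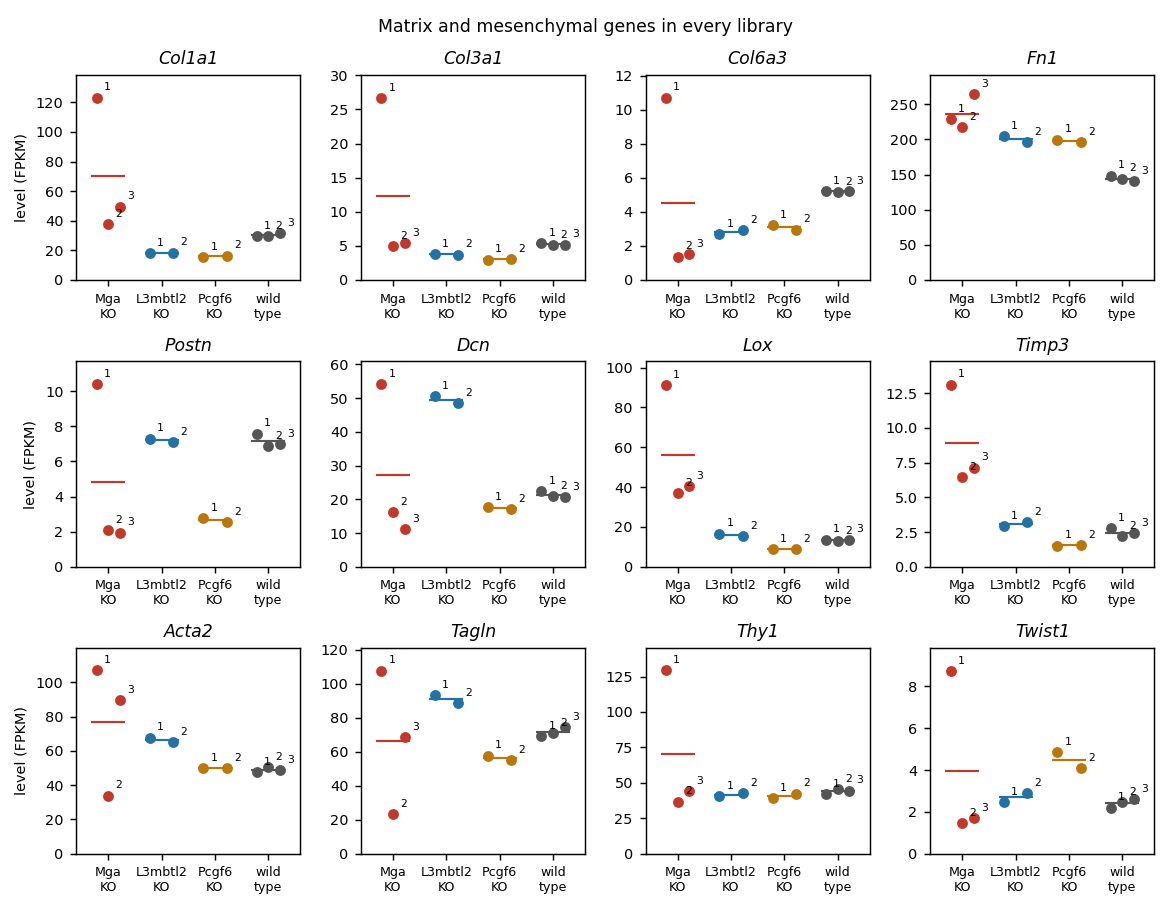
FPKM of 12 of the genes in each library, with the replicate number beside each point and a line at the group mean. Knockout groups stand left of wild type and each vertical axis starts at 0. MgaKO1 is the highest library for 11 of the 12 genes, and for Fn1 all knockout libraries are above wild type.

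Among the glycoproteins, fibronectin differed from the rest in its order of libraries. Fn1, fibronectin, which links matrix to integrins, was at 229, 218 and 264 FPKM in MgaKO1, MgaKO2 and MgaKO3, 204 and 197 FPKM in L3mbtl2 knockout, 199.9 and 196 FPKM in Pcgf6 knockout and 149, 144 and 140.2 FPKM in wild type. All 7 knockout libraries lay above the 3 wild type libraries, and MgaKO3, not MgaKO1, was highest. Fbn1, fibrillin of elastic microfibrils, was at 14.5, 3.81 and 4.33 FPKM in MgaKO1, MgaKO2 and MgaKO3, 5.16 and 5.41 FPKM in L3mbtl2 knockout, 3.43 and 3.69 FPKM in Pcgf6 knockout and 4.88, 4.53 and 4.55 FPKM in wild type. Postn, periostin, a matricellular protein of remodelling tissue, was at 10.4, 2.08 and 1.94 FPKM in MgaKO1, MgaKO2 and MgaKO3, 7.29 and 7.1 FPKM in L3mbtl2 knockout, 2.75 and 2.55 FPKM in Pcgf6 knockout and 7.58, 6.89 and 7 FPKM in wild type. Fbn1 was highest in MgaKO1 and slightly above wild type in L3mbtl2 knockout, and Postn was low in MgaKO2, MgaKO3 and both Pcgf6 knockout libraries but within the wild type range in L3mbtl2 knockout. Lum, lumican, a keratan sulphate proteoglycan, was at 15.4, 5.31 and 3.49 FPKM in MgaKO1, MgaKO2 and MgaKO3, 9.38 and 8.14 FPKM in L3mbtl2 knockout, 3.96 and 4.35 FPKM in Pcgf6 knockout and 6.81, 6.33 and 5.81 FPKM in wild type. Dcn, decorin, which binds collagen fibrils, was at 54.2, 16.2 and 11.2 FPKM in MgaKO1, MgaKO2 and MgaKO3, 50.5 and 48.4 FPKM in L3mbtl2 knockout, 17.6 and 17 FPKM in Pcgf6 knockout and 22.5, 21 and 20.6 FPKM in wild type. Both were high in MgaKO1 and in both L3mbtl2 knockout libraries and low in MgaKO2, MgaKO3 and both Pcgf6 knockout libraries, with no overlap with wild type. Bgn, biglycan, a proteoglycan related to decorin, was at 78.3, 16.8 and 19.7 FPKM in MgaKO1, MgaKO2 and MgaKO3, 41.2 and 40.0 FPKM in L3mbtl2 knockout, 32.2 and 32.4 FPKM in Pcgf6 knockout and 42.4, 42.3 and 40.7 FPKM in wild type. Fstl1, a secreted protein of the follistatin family, was at 47.8, 45.7 and 23 FPKM in MgaKO1, MgaKO2 and MgaKO3, 22.4 and 22.4 FPKM in L3mbtl2 knockout, 21.5 and 21.1 FPKM in Pcgf6 knockout and 42.7, 41.7 and 41.6 FPKM in wild type. Bgn was high in MgaKO1 and low in MgaKO2 and MgaKO3, whereas Fstl1 was slightly above wild type in MgaKO1 and MgaKO2 and low in MgaKO3 and in all L3mbtl2 and Pcgf6 knockout libraries. Igfbp7, a secreted binding protein of insulin-like growth factors, was at 28.7, 7.89 and 15.4 FPKM in MgaKO1, MgaKO2 and MgaKO3, 11 and 11.8 FPKM in L3mbtl2 knockout, 7.23 and 7.52 FPKM in Pcgf6 knockout and 8.89, 7.74 and 8.21 FPKM in wild type. MgaKO1, MgaKO3 and both L3mbtl2 knockout libraries lay above wild type, and MgaKO2 lay within its range.

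Lysyl oxidases cross-link collagen and elastin. Lox, the founding member, was at 91.3, 37 and 40.5 FPKM in MgaKO1, MgaKO2 and MgaKO3, 16.7 and 15.4 FPKM in L3mbtl2 knockout, 8.77 and 8.89 FPKM in Pcgf6 knockout and 13.6, 13 and 13.6 FPKM in wild type. Loxl1, a paralogue with a role in elastic fibres, was at 32.6, 6.66 and 9.9 FPKM in MgaKO1, MgaKO2 and MgaKO3, 12.7 and 13.4 FPKM in L3mbtl2 knockout, 10.4 and 9.64 FPKM in Pcgf6 knockout and 11.9, 12.2 and 11.8 FPKM in wild type. Lox was higher in all 3 libraries labelled Mga knockout than in any other library, while Loxl1 was high in MgaKO1 and low in MgaKO2 and MgaKO3. Mmp2, a gelatinase, was at 32.8, 13.3 and 14.5 FPKM in MgaKO1, MgaKO2 and MgaKO3, 11.9 and 12.4 FPKM in L3mbtl2 knockout, 11.4 and 11.1 FPKM in Pcgf6 knockout and 18.6, 17.8 and 17.1 FPKM in wild type. Timp3, a metalloproteinase inhibitor held in the matrix, was at 13.1, 6.47 and 7.14 FPKM in MgaKO1, MgaKO2 and MgaKO3, 2.95 and 3.19 FPKM in L3mbtl2 knockout, 1.52 and 1.55 FPKM in Pcgf6 knockout and 2.78, 2.21 and 2.4 FPKM in wild type. Mmp2 was high in MgaKO1 alone and low in the other 6 knockout libraries, and Timp3, like Lox, was higher in all 3 libraries labelled Mga knockout than in any other library.

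Of the contractile and cytoskeletal genes, 4 were tested. Acta2, smooth muscle alpha actin, was at 107, 33.9 and 89.4 FPKM in MgaKO1, MgaKO2 and MgaKO3, 67.7 and 65.1 FPKM in L3mbtl2 knockout, 49.7 and 49.9 FPKM in Pcgf6 knockout and 47.6, 50.4 and 48.6 FPKM in wild type. Tagln, transgelin, an actin-binding protein of smooth muscle, was at 108, 23.3 and 68.5 FPKM in MgaKO1, MgaKO2 and MgaKO3, 93.2 and 88.4 FPKM in L3mbtl2 knockout, 57.7 and 54.8 FPKM in Pcgf6 knockout and 69.1, 70.9 and 74.3 FPKM in wild type. MgaKO2 was the lowest library for both genes and MgaKO1 the highest, with MgaKO3 above wild type for Acta2 and just below it for Tagln. Cnn1, calponin, an actin-binding protein of differentiated smooth muscle, was at 1.96, 1.5 and 2.18 FPKM in MgaKO1, MgaKO2 and MgaKO3, 2.19 and 2.05 FPKM in L3mbtl2 knockout, 1.85 and 1.83 FPKM in Pcgf6 knockout and 3.46, 3.29 and 3.49 FPKM in wild type. Every knockout library lay below wild type. Vim, vimentin, the intermediate filament of mesenchymal cells, was at 193, 53.4 and 78.6 FPKM in MgaKO1, MgaKO2 and MgaKO3, 115 and 112 FPKM in L3mbtl2 knockout, 73.7 and 74.5 FPKM in Pcgf6 knockout and 85.9, 84.2 and 84.8 FPKM in wild type. MgaKO1 and both L3mbtl2 knockout libraries were above wild type, and the other 4 knockout libraries were below.

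Surface proteins and transcription factors followed. Thy1, a surface glycoprotein of fibroblasts and other cells, was at 129.6, 36.8 and 44.2 FPKM in MgaKO1, MgaKO2 and MgaKO3, 40.4 and 42.7 FPKM in L3mbtl2 knockout, 39.4 and 42.4 FPKM in Pcgf6 knockout and 42, 45.7 and 44.5 FPKM in wild type. Pdgfrb, the beta receptor of platelet-derived growth factor, was at 5.95, 2.87 and 3.4 FPKM in MgaKO1, MgaKO2 and MgaKO3, 3.76 and 3.84 FPKM in L3mbtl2 knockout, 2.12 and 2.34 FPKM in Pcgf6 knockout and 3.02, 3.42 and 3.34 FPKM in wild type. Thy1 was high in MgaKO1 alone, and Pdgfrb was highest in MgaKO1 and lowest in Pcgf6 knockout. Twist1, a basic helix-loop-helix factor of mesenchyme, whose promoter is shown above, was at 8.73, 1.46 and 1.7 FPKM in MgaKO1, MgaKO2 and MgaKO3, 2.48 and 2.9 FPKM in L3mbtl2 knockout, 4.87 and 4.09 FPKM in Pcgf6 knockout and 2.2, 2.48 and 2.6 FPKM in wild type. MgaKO1 and both Pcgf6 knockout libraries were above wild type, and MgaKO2 and MgaKO3 were below it. Twist2, its paralogue, was at 1.46, 0.351 and 0.682 FPKM in MgaKO1, MgaKO2 and MgaKO3, 0.929 and 1.19 FPKM in L3mbtl2 knockout, 0.732 and 0.732 FPKM in Pcgf6 knockout and 0.527, 0.554 and 0.793 FPKM in wild type. Prrx1, a homeobox factor of limb and craniofacial mesenchyme, was at 6.78, 1.91 and 2.05 FPKM in MgaKO1, MgaKO2 and MgaKO3, 4.5 and 4.24 FPKM in L3mbtl2 knockout, 2.42 and 2.09 FPKM in Pcgf6 knockout and 2.77, 2.72 and 2.69 FPKM in wild type. Twist2, with 27 to 115 reads per library, overlapped wild type in MgaKO3 and in Pcgf6 knockout, while Prrx1 was high in MgaKO1 and both L3mbtl2 knockout libraries and low in the other 4 knockout libraries.

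Set against wild type as a group, the libraries labelled Mga knockout differed in 5 of the 29 genes by limma (17.2%, against 39.5% of all genes), with Benjamini-Hochberg adjusted p-values over all genes. The matrix genes Lox, Timp3, Col5a2 and Fn1 rose, and the smooth muscle gene Cnn1 fell. That is 4 genes up (13.8%), against 22.8% of all genes, and 1 down (3.45%), against 16.7%, so neither share exceeded the background. The 29 genes had a median log2 fold change of 0.196, against 0.102 over all genes. Lox rose to 56.3 ± 30.4 FPKM, against 13.4 ± 0.349 FPKM in wild type (SD, n = 3 each), a log2 fold change of 1.94 ± 0.29 (SE, limma adjusted p = 0.00139). Timp3 rose by 1.75 ± 0.24 on the log2 scale (SE, limma adjusted p = 0.00103). On the same scale, Col5a2 rose by 1.23 ± 0.26 (SE, limma adjusted p = 0.0067), and Fn1 by 0.71 ± 0.08 (SE, limma adjusted p = 0.000353). Cnn1 fell by 0.84 ± 0.15 on the log2 scale (SE, limma adjusted p = 0.00318). Col1a1 and Col5a1 were also above wild type in every library labelled Mga knockout, with log2 fold changes of 1.01 ± 0.36 and 0.88 ± 0.33 (SE), and missed the threshold at limma adjusted p of 0.0505 and 0.0637. In all, 6 of 29 genes lay above wild type in all 3 libraries (all genes 28.3%) and 1 lay below (all genes 20.5%).

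The group value rests on which library is in it. MgaKO1 was the highest library for 27 of the 29 genes (all genes 17.3%), so leaving it out narrows the spread of these genes in particular. Here and below, shares and p-values without MgaKO1 are therefore not on an even footing with those of all genes. Without MgaKO1, 6 of the 29 genes rose against wild type (all genes 25.2%) and 12 fell (all genes 20.2%) in the same limma fit. The genes that then rose were Timp3, Col5a1, Col1a1, Col5a2, Fn1 and Lox. Those that fell were Postn, Col6a1, Col6a2, Col6a3, Prrx1, Lum, Mmp2, Cnn1, Dcn, Twist1, Bgn and Loxl1. Col6a3 then had a log2 fold change of -1.78 ± 0.10 (SE), against -0.85 ± 0.65 with MgaKO1. Postn had -1.78 ± 0.09 (SE), against -1.01 ± 0.53 with it. Without MgaKO2, the library at 106% for Mga, 8 genes rose (all genes 32.7%) and 1 fell (all genes 22.7%). Lox, Timp3, Col5a2, Fn1 and Cnn1 passed the threshold in the same direction with and without MgaKO1.

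**Figure D3:**
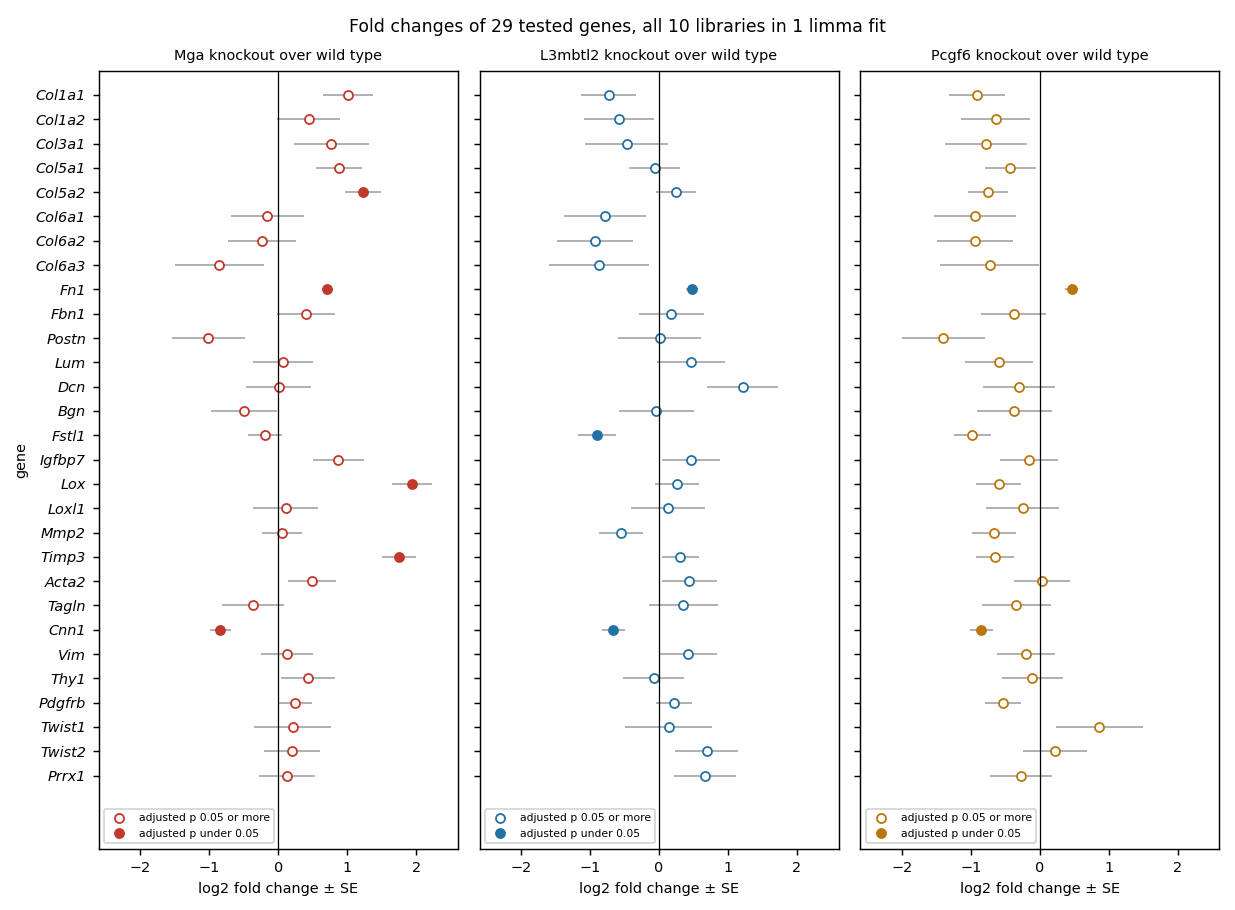
Log2 fold changes over wild type of the 29 tested genes, with limma standard errors as bars, for the libraries labelled Mga knockout, L3mbtl2 knockout and Pcgf6 knockout. Filled points passed an adjusted p of 0.05. The filled points number 5, 3 and 2 in the 3 panels, and most Pcgf6 knockout values lie left of 0.

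L3mbtl2 knockout libraries differed from wild type in 3 of the 29 genes by limma (10.3%, against 40.0% of all genes), fibronectin upward and Fstl1 and Cnn1 downward. That is 1 gene up (3.45%, against 23.4% of all genes) and 2 down (6.9%, against 16.7%). Fn1 rose by 0.48 ± 0.09 on the log2 scale (SE, limma adjusted p = 0.00375). Fstl1 fell by 0.90 ± 0.27 (SE, limma adjusted p = 0.026), and Cnn1 fell by 0.66 ± 0.17 (SE, limma adjusted p = 0.0145). Leaving out either L3mbtl2 knockout library ended the calls of Fstl1 and Cnn1, whose limma adjusted p reached 0.116 and 0.0993. Leaving out any 1 wild type library ended the call of Fstl1 and not that of Cnn1. Calls over all genes fell too, from 3675 up and 2622 down with every library. They were 2797 and 1967, 2640 and 1897, and 2642 and 1900 without wild type replicates 1, 2 and 3 in turn. The standard errors of this fit draw on all groups, the widely spread libraries labelled Mga knockout included. Without MgaKO1, 5 genes rose (all genes 30.6%) and 9 fell (all genes 22.8%), and with the L3mbtl2 knockout and wild type libraries alone 15 rose (all genes 41.9%) and 9 fell (all genes 30.7%). In both, the 9 that fell included all 3 collagen VI chains, both collagen I chains and Col3a1. Both L3mbtl2 knockout libraries lay above every wild type library for 15 of 29 genes (all genes 46.7%) and below for 9 (all genes 32.8%). Dcn averaged 49.4 ± 1.51 FPKM in L3mbtl2 knockout (SD, n = 2) and 21.4 ± 0.98 FPKM in wild type (SD, n = 3), with a log2 fold change of 1.21 ± 0.52 (SE) and a limma adjusted p of 0.0975. Without MgaKO1 that standard error was 0.14 and the limma adjusted p was 0.000353. In the same 2 libraries 6 of the 8 collagen genes lay below every wild type library, and both decorin and lumican lay above.

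Pcgf6 knockout libraries differed from wild type in 2 of the 29 genes by limma (6.9%, against 10.1% of all genes). Fn1 rose by 0.46 ± 0.09 on the log2 scale (SE, limma adjusted p = 0.0157), and Cnn1 fell by 0.85 ± 0.17 (SE, limma adjusted p = 0.0172). These calls are 1 gene each way (3.45%), against 5.45% of all genes up and 4.62% down. Leaving out any 1 wild type or Pcgf6 knockout library ended both. Calls over all genes fell too, from 857 up and 727 down with every library. They were 315 and 267, 283 and 232, and 346 and 275 without wild type replicates 1, 2 and 3 in turn. Both Pcgf6 knockout libraries nevertheless lay below every wild type library for 24 of the 29 genes, against 29.2% of all genes, and above for Fn1 and Twist1, against 36.2%. The median log2 fold change of the 29 genes was -0.528, against 0.043 over all genes. Without MgaKO1, 18 of the 29 fell (all genes 10.7%) and 2 rose (all genes 12.5%), with the limit given above for fits without the library most extreme for these genes. Without MgaKO2, 3 fell (all genes 11.3%) and 1 rose (all genes 14.2%), and with the Pcgf6 knockout and wild type libraries alone 22 fell (all genes 23.2%) and 2 rose (all genes 27.1%). Postn averaged 2.65 ± 0.145 FPKM in Pcgf6 knockout (SD, n = 2) and 7.16 ± 0.374 FPKM in wild type (SD, n = 3), with a log2 fold change of -1.40 ± 0.60 (SE) and a limma adjusted p of 0.176. Without MgaKO1 its standard error was 0.09 and its limma adjusted p 0.000162. Twist1 had a log2 fold change of 0.86 ± 0.63 (SE, limma adjusted p = 0.437), and a standard error of 0.14 (limma adjusted p = 0.00609) without MgaKO1. All 8 collagen genes were lower in both Pcgf6 knockout libraries, with log2 fold changes of -0.94 to -0.43. The 3 comparisons share the wild type libraries, so the like direction of Fn1 and Cnn1 in all of them does not come from separate controls.

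The knockouts were also set against each other in the same limma fit. Of the 29 genes, Col1a1, Col5a2, Lox and Timp3 were higher in the libraries labelled Mga knockout than in L3mbtl2 knockout (13.8%, against 10.9% of all genes). Those 4 and Col5a1 were higher in the libraries labelled Mga knockout than in Pcgf6 knockout (17.2%, against 12.0%). Col5a2 and Timp3 were higher in L3mbtl2 knockout than in Pcgf6 knockout (6.9%, against 16.6% of all genes higher and 13.9% lower). Leaving out either L3mbtl2 knockout library ended the 4 calls of the libraries labelled Mga knockout against L3mbtl2 knockout, with 4 genes still at an unadjusted limma p under 0.05. The 2 calls between L3mbtl2 and Pcgf6 knockout ended without any 1 wild type, L3mbtl2 knockout or Pcgf6 knockout library. Without a wild type library, 4 genes were still at an unadjusted limma p under 0.05. Calls over all genes then fell too, from 2616 higher and 2187 lower with every library. They were 2102 and 1725, 1989 and 1650, and 2111 and 1728 without wild type replicates 1, 2 and 3 in turn. Without MgaKO2, 9 genes were higher in the libraries labelled Mga knockout than in L3mbtl2 knockout (all genes 18.7%), 14 were higher than in Pcgf6 knockout (25.3%), and 5 were higher in L3mbtl2 than in Pcgf6 knockout (25.9%). With only the L3mbtl2 and Pcgf6 knockout libraries in the fit, 18 genes were higher in L3mbtl2 knockout than in Pcgf6 knockout (all genes 37.3%) and Twist1 was lower (all genes 30.3%). With only the libraries labelled Mga knockout and L3mbtl2 knockout in the fit, none of the 29 genes was called (2.15% of all genes were higher), with 4 at an unadjusted limma p under 0.05. With only the libraries labelled Mga knockout and Pcgf6 knockout, Timp3 alone was higher in the first (all genes 0.894%). Without MgaKO1, 7 genes were higher and 10 lower in the libraries labelled Mga knockout than in L3mbtl2 knockout (all genes 18.0% and 19.9%), and 9 higher and 4 lower than in Pcgf6 knockout (16.2% and 15.0%). Between L3mbtl2 and Pcgf6 knockout, 12 were then higher in L3mbtl2 knockout (all genes 24.4%) and Twist1 was lower (20.9%).

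Other genes of the same pathways were read from further lists, again as MgaKO1 against MgaKO2 and MgaKO3 with the 9.01% of all genes as background. Most of the genes named for the largest excess in each list were above wild type in MgaKO1 and below it in MgaKO2 and MgaKO3. Choosing by that excess favours this order. Of the other matrix genes, Col12a1 and Prelp had the smallest limma adjusted p for the libraries labelled Mga knockout over wild type. Col12a1 was at 15.5, 11.4 and 10.9 FPKM in MgaKO1, MgaKO2 and MgaKO3, against 1.45 to 1.77 FPKM in wild type. Prelp was at 7.47, 4.36 and 4.12 FPKM, against 0.0579 to 0.104 FPKM in wild type. In that list 7 of 26 tested genes rose (26.9%, all genes 22.8%) and 1 fell (3.85%, all genes 16.7%). Of 26 tested genes for other matrix proteins, 13 were at least 2-fold higher, with a median difference of 1.01 on the log2 scale. Has2, a hyaluronan synthase, was at 2.3, 0.253 and 0.236 FPKM in MgaKO1, MgaKO2 and MgaKO3, against 1.6 to 1.76 FPKM in wild type. Col5a3, a collagen V chain, was at 8.92, 1.77 and 1.75 FPKM, against 4.46 to 4.87 FPKM in wild type. Both were above wild type in MgaKO1 and below it in the other 2 libraries. Mfap5, a microfibril protein, was at 5.17, 0.679 and 1.77 FPKM, against 1.62 to 1.98 FPKM in wild type, so that MgaKO3 overlapped wild type. Tnc, tenascin C, was at 149 FPKM in MgaKO1, 39.2 FPKM in MgaKO2 and 34.2 FPKM in MgaKO3, against 75.9 to 79.2 FPKM in wild type. Of 16 proteases and inhibitors, 9 were at least 2-fold higher (median 1.16) and 1 was at least 2-fold lower. Mmp9, a gelatinase, was at 8.78, 0.268 and 2.29 FPKM in the 3 libraries, against 3.22 to 3.39 FPKM in wild type. Plau, the urokinase, was at 11.9, 1.18 and 1.35 FPKM, against 7.37 to 8.87 FPKM in wild type, and so followed the same order. Mmp3, a stromelysin, was at 107, 18.8 and 12.8 FPKM, against 98 to 103.5 FPKM in wild type. MgaKO1 thus stood little above wild type and the other 2 far below. Plau and Mmp3 were highest in L3mbtl2 knockout, at 17.3 and 16.5 FPKM and at 167.7 and 170 FPKM. MgaKO1 was the highest of the 10 libraries for 7 of the 16 proteases and inhibitors (all genes 17.3%). Timp1, a metalloproteinase inhibitor, was at 192, 46.3 and 52.4 FPKM, against 86.9 to 101 FPKM in wild type. Of 16 genes of the TGF-beta pathway, a main driver of matrix genes, 7 were at least 2-fold higher (median 0.64). Ltbp2, a latent TGF-beta binding protein of the matrix, was at 7.73, 1.8 and 2.52 FPKM, against 2.66 to 2.82 FPKM in wild type. Ltbp1, another such protein, was at 5.56, 1.87 and 1.57 FPKM, against 5.53 to 6.01 FPKM in wild type, so that MgaKO1 lay within the wild type range. Tgfbr2, a TGF-beta receptor, was at 8.14, 2.36 and 3.24 FPKM, against 3.67 to 3.87 FPKM in wild type.

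Of 25 genes for the folding, trimming and cross-linking of collagen, 7 were at least 2-fold higher and 1 at least 2-fold lower, with a median of 0.31. Loxl3, a lysyl oxidase, was at 7.13, 1.26 and 1.7 FPKM in MgaKO1, MgaKO2 and MgaKO3, against 4.15 to 4.26 FPKM in wild type. Fkbp10, a collagen chaperone, was at 16.1, 4.15 and 5.05 FPKM, against 17.3 to 17.9 FPKM in wild type, so that all 3 libraries lay below wild type. Bmp1, a procollagen protease, was at 29.8, 6.49 and 12.1 FPKM, against 14.7 to 15.7 FPKM in wild type. Of 15 smooth muscle and SRF pathway genes 2 were at least 2-fold higher (median 0.75), of 11 other mesenchymal transcription factors 2 (median 0.35) and of 11 other fibroblast surface genes 3 (median 0.41), with 2 of the last at least 2-fold lower. Set against wild type by limma, the libraries labelled Mga knockout had 7 of 26 genes that rose (26.9%) and 1 that fell in the other matrix list, and 6 of 25 that rose (24.0%) and 4 that fell (16.0%) in the collagen processing list, against 22.8% of all genes up and 16.7% down. In these libraries 7 of the 15 smooth muscle and SRF genes fell (46.7%, against that 16.7%) and none rose, and 4 of the 11 mesenchymal transcription factors rose (36.4%, against that 22.8%). The counts were 3 up and 3 down in the TGF-beta list, 2 up and 2 down among proteases and inhibitors, and 2 up and 2 down among fibroblast surface genes. In L3mbtl2 knockout, where 23.4% of all genes rose and 16.7% fell, 3 of 25 collagen processing genes rose (12.0%) and 6 fell (24.0%). In the same comparison 1 gene rose and 3 fell in each of the other matrix and protease lists (11.5% and 18.8% down), and 2 rose and 3 fell in the TGF-beta list (12.5% and 18.8%). In Pcgf6 knockout, where 5.45% of all genes rose and 4.62% fell, the largest count in any of these lists was 2 genes, which fell, in the collagen processing, protease and smooth muscle lists.

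**Figure D4:**
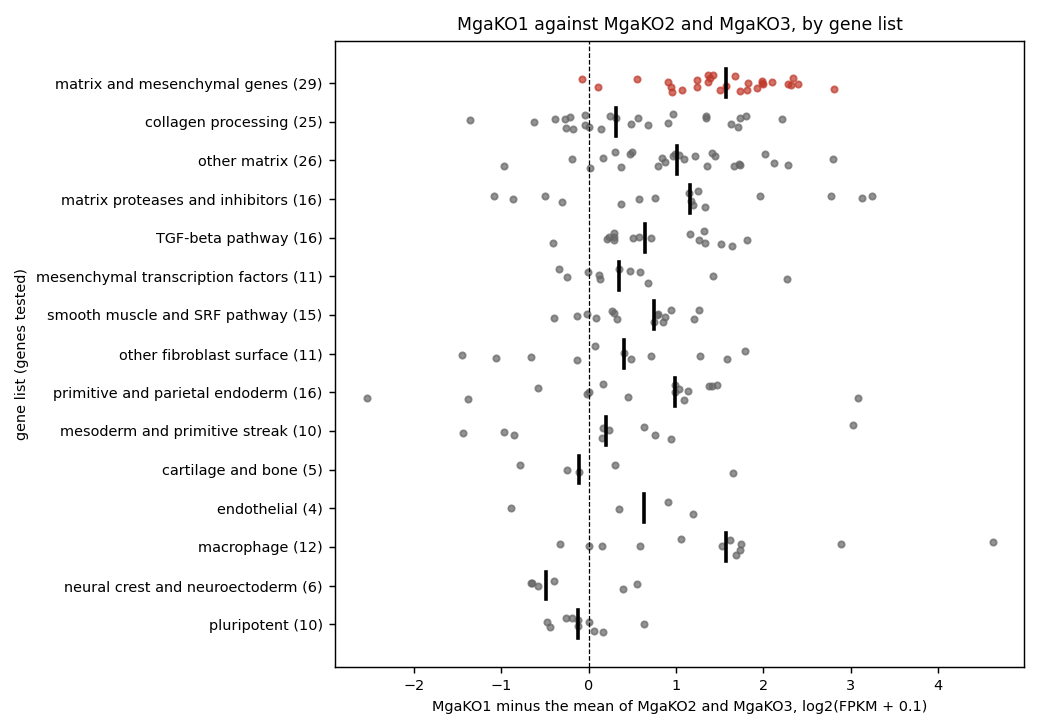
The difference of MgaKO1 from the mean of MgaKO2 and MgaKO3 in log2(FPKM + 0.1), 1 point per tested gene, for the matrix and mesenchymal genes (red) and the other lists (grey). Black bars are list medians and the dashed line is the median over all genes. The matrix and mesenchymal genes have a median of 1.57, the macrophage list 1.58 and the pluripotent list -0.12. Most macrophage genes are near 0 FPKM in these 3 libraries, so their differences depend on the pseudocount.

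Some markers of other cell types that make matrix or could be present differed in MgaKO1 too. Of 16 tested genes of primitive and parietal endoderm, 7 were at least 2-fold higher than in MgaKO2 and MgaKO3 and 2 at least 2-fold lower, with a median of 0.99. The list summed to 568 FPKM in MgaKO1, 301 FPKM in MgaKO2 and 361 FPKM in MgaKO3, 475 and 479 FPKM in L3mbtl2 knockout, 369 and 368 FPKM in Pcgf6 knockout and 346 to 349 FPKM in wild type. Sparc made up most of each of these sums, at 376.5, 160.5 and 209.5 FPKM in MgaKO1, MgaKO2 and MgaKO3 and 196.1 to 199.2 FPKM in wild type. Thbd, thrombomodulin, was at 21.3, 2.55 and 2.33 FPKM in MgaKO1, MgaKO2 and MgaKO3, against 5.39 to 6.19 FPKM in wild type. Among tested endoderm transcription factors, the log2 difference of MgaKO1 was -0.02 (Gata4), 0.01 (Sox17), 0.45 (Gata6) and 1.47 (Sox7). Over wild type by limma, Gata4, Gata6 and Sox17 rose in all 3 knockout groups, and Sox7 in L3mbtl2 knockout only. Of the 16 genes, 3 rose and 1 fell in the libraries labelled Mga knockout (18.8% and 6.25%, all genes 22.8% and 16.7%). In L3mbtl2 knockout 6 rose (37.5%, all genes 23.4%) and in Pcgf6 knockout 4 rose (25.0%, all genes 5.45%), and none fell in either. The 2 lower genes were Lama1 (-2.54) and Pth1r (-1.38). Of 12 macrophage genes 8 were at least 2-fold higher (median 1.58). Most of the 8 were below 1 FPKM in MgaKO1, MgaKO2 and MgaKO3, such as Adgre1 at 0.286, 0.0255 and 0.0257 FPKM and C1qb at 0.222, 0 and 0 FPKM. Their differences thus rest on few reads and on the pseudocount, and the median is not comparable with that of the matrix genes. The list summed to 28.6, 32.6 and 9.58 FPKM in the same 3 libraries, against 429 and 414 FPKM in L3mbtl2 knockout, 207.7 and 209.6 FPKM in Pcgf6 knockout and 152 to 158 FPKM in wild type. Cd68, named after its values were seen, made up most of the first 3 sums, at 15.9, 31.2 and 8.01 FPKM. Without it the list summed to 12.7, 1.37 and 1.56 FPKM in MgaKO1, MgaKO2 and MgaKO3 and 116 to 119.8 FPKM in wild type. Lyz2, a lysozyme of macrophages, was at 7.26, 0.196 and 0.197 FPKM, against 93.3 to 96.3 FPKM in wild type, and Tyrobp, an immune adaptor, was listed at 0 in MgaKO2 and MgaKO3. Of 10 mesoderm genes 1 was higher and 1 lower by at least 2-fold, of 5 cartilage and bone genes 1 was higher, and of 4 endothelial genes 1 was higher. The mesoderm list summed to 16.6 to 37.6 FPKM in the libraries labelled Mga knockout, 10.4 to 10.6 FPKM in L3mbtl2 knockout, 14.0 to 15.2 FPKM in Pcgf6 knockout and 23.5 to 25.8 FPKM in wild type. The endothelial list summed to 13.6 to 24.1 FPKM in the libraries labelled Mga knockout, 39.8 to 41.0 FPKM in L3mbtl2 knockout, 19.4 to 19.7 FPKM in Pcgf6 knockout and at least 28.2 FPKM in each wild type library. Pecam1 alone made up most of each endothelial sum. It was at 11.8 to 18.8 FPKM in the libraries labelled Mga knockout, 35.0 and 35.7 FPKM in L3mbtl2 knockout and 20.2 to 21.5 FPKM in wild type. Neural crest and neuroectoderm (6 tested) and pluripotent genes (10 tested) had none past 2-fold either way, with medians of -0.49 and -0.12. The part of these cell types in the matrix gene difference was not tested.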

How the data were processed

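Per the labels' protocols, RNA was extracted in Trizol and a NEBNext Ultra kit served for the libraries. Per the series' design text, these were sequenced on a HiSeq4000. The deposited values are FPKM per Ensembl gene, made by the authors. Bowtie2 2.2.3, TopHat2 2.0.12, HTSeq 0.6.0 and the GRCm38 build are named in the submitters' processing notes. Of 30460 identifiers, 30250 received a symbol and position from GENCODE M21, and 210 did not. Values were whole multiples of 1 read, within 0.005, for 77.9% of the genes above 0 at the GENCODE exon length, and read counts were recovered from these steps. Recovered depth was 19.4 to 26.7 in units of 1e6 reads. PCR copies were not marked, so read numbers overstate the count of molecules.

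Tests used limma 3.58.1 (R 4.3.3) on log2(FPKM + 0.1) of the deposited values, with a variance trend, for the 15731 genes that reached 0.5 FPKM in 2 or more libraries. All 10 libraries entered 1 fit with group as its only term. P-values were adjusted by Benjamini-Hochberg across the tested genes and called under 0.05. All 29 tested matrix genes reached the filter in each of the 4 groups. Because of the pseudocount, fold changes of low genes are understated. MgaKO1 was set against the mean log2 value of MgaKO2 and MgaKO3 by a 2-fold rule with no test. Alternatives were other pseudocounts, filters and scalings, each library left out, the replicate block, only the libraries compared, and limma-voom on recovered reads.

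The genes and lists were chosen with earlier results of these data known. Every listed gene that reached 1 FPKM in a library is given in each library. Of a further list, up to 4 genes are named, in order from the largest excess in MgaKO1. In the other matrix, mesoderm, endoderm, macrophage and endothelial lists, further genes were named after their values were seen. Replicate libraries differed by more than sampling noise and were counted singly.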

Additional observations from a re-analysis of the deposited data

How the results depend on the processing

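Across 19 alternatives, the 5 genes called for the libraries labelled Mga knockout over wild type numbered 5 or 6 under every pseudocount, filter, scaling, voom or replicate block setting. With 1 library left out, limma called 5 to 18 of the 29 genes there, 1 to 14 between L3mbtl2 knockout and wild type, and 0 to 20 between Pcgf6 knockout and wild type. It called 0 to 17 between the libraries labelled Mga knockout and L3mbtl2 knockout, 3 to 14 between those labelled Mga knockout and Pcgf6 knockout, and 0 to 13 between L3mbtl2 and Pcgf6 knockout. The highest count came without MgaKO1, except without MgaKO2 for Mga against Pcgf6 knockout. Calls over all genes moved in these refits too, so the ranges do not describe the 29 genes alone. For the libraries labelled Mga knockout over wild type, 2403 genes rose and 1795 fell without wild type replicate 2. Without MgaKO2 5102 rose and 3545 fell. For Pcgf6 knockout over wild type, the counts were 283 and 232 without wild type replicate 2 and 2216 and 1759 without MgaKO2. Where a group is left with 1 library, the fit assumes that it varies like the other groups. With only the libraries compared in the fit, the counts were 24 (L3mbtl2 knockout over wild type), 24 (Pcgf6 knockout over wild type), 0 (Mga over L3mbtl2 knockout), 1 (Mga over Pcgf6 knockout) and 19 (L3mbtl2 over Pcgf6 knockout). The 2 genes called between L3mbtl2 and Pcgf6 knockout became 0 with a pseudocount of 1, 0 with no filter, 1 with median-of-ratios size factors, 1 with upper-quartile scaling and 0 with limma-voom on recovered reads. Where a count was 0, 1 to 5 genes had an unadjusted limma p under 0.05. The count of 23 genes higher in MgaKO1 ran from 20 (against MgaKO3 alone) to 26 (against MgaKO2 alone), and that of 27 genes with MgaKO1 highest ran from 26 to 28.

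The replicate numbers did not pair the libraries, since the deviations of same-numbered libraries correlated between -0.0196 and 0.0349. With the replicate block, 5, 3 and 3 genes were called against wild type in the libraries labelled Mga, L3mbtl2 and Pcgf6 knockout, and 0 between L3mbtl2 and Pcgf6 knockout. Under the block the log2 fold change over wild type in L3mbtl2 knockout became -0.21 for Postn and -0.01 for Twist1.

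Median-of-ratios scaling moved the median of all genes over wild type to 0.004 from 0.102 for the Mga knockout labels and to 0.016 from 0.131 in L3mbtl2 knockout, and the genes called in the first turned to 2898 up and 3130 down from 3588 and 2622. Signs turned for values near 0. With median-of-ratios and upper-quartile scaling, the log2 fold change in the libraries labelled Mga knockout became -0.09 and -0.05 for Dcn and -0.05 and -0.01 for Mmp2, and that in L3mbtl2 knockout became -0.11 and -0.06 for Postn. With median-of-ratios scaling Lum became -0.03 in the libraries labelled Mga knockout and Acta2 -0.02 in Pcgf6 knockout. With 1 library left out, the log2 fold change in the libraries labelled Mga knockout ran from -0.20 to 0.79 (Col1a2), -0.01 to 1.19 (Col3a1), -0.92 to 0.33 (Col6a1), -0.89 to 0.33 (Col6a2), -0.19 to 0.76 (Fbn1), -0.54 to 0.52 (Lum), -0.66 to 0.47 (Dcn), -0.37 to 0.15 (Fstl1), -0.55 to 0.59 (Loxl1), -0.36 to 0.29 (Mmp2), -0.84 to 0.26 (Tagln), -0.39 to 0.53 (Vim), -0.13 to 0.78 (Thy1), -0.06 to 0.46 (Pdgfrb), -0.59 to 0.66 (Twist1), -0.27 to 0.63 (Twist2) and -0.44 to 0.44 (Prrx1). Postn in L3mbtl2 knockout ran from -0.02 to 0.05. The cause of these shifts was not tested. Depth limits most the genes with the fewest reads in their lowest library, Fap with 3, Twist2 with 27 and Twist1 with 57.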
